A study of Saccharomyces cerevisiae with 4 samples.

Results

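The pentose phosphate pathway of budding yeast (Saccharomyces cerevisiae) was described here through its 10 enzyme genes, ZWF1, SOL3, SOL4, GND1, GND2, RKI1, RPE1, TKL1, TKL2 and TAL1, chosen by their standard names out of 6459 rows of the deposited tables. Each was found under its systematic name in build R64, and all 10 passed the filter on low counts that left 5799 tested genes. RNA was sequenced from 2 DMSO and 2 IAA libraries of the strain ESS1-AID (BY4741 background). Every library carried the genotype HIS3::ADH1-OsTIR19Myc together with ESS1AID 71-114-6Flag::hphB, in which the prolyl isomerase Ess1, an enzyme that works on the tail domain of RNA polymerase II, bears an auxin-inducible degron, and the ADH1 promoter drives the plant receptor OsTIR1 that the degron needs. Cells grew in YPD with 20 g/L glucose at 30 °C to mid-log phase and then received DMSO or 2 mM IAA (indole-3-acetic acid, an auxin) for 3 h. No culture of a strain without the degron was part of the comparison, so loss of Ess1 and other effects of IAA cannot be told apart. The series design text calls the 2 libraries of each group biological replicates.

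The pathway branches from glycolysis at glucose 6-phosphate. Its oxidative branch turns this sugar into a pentose phosphate and yields NADPH, the reductant that biosynthesis and the glutathione and thioredoxin systems draw on. Its non-oxidative branch converts pentose phosphates reversibly into glycolytic intermediates, and supplies ribose 5-phosphate for nucleotides and erythrose 4-phosphate for aromatic amino acids. In yeast the lactonase, 6-phosphogluconate dehydrogenase and transketolase steps each have a main enzyme (Sol3, Gnd1, Tkl1) and a minor isoenzyme (Sol4, Gnd2, Tkl2). The transcription factor Stb5 is known to activate pathway genes under oxidative stress, and Msn2 and Msn4 activate general stress genes through the stress response element.

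The deposited estimated counts summed to 26046702 and 27609311 for the DMSO libraries, and the IAA libraries were deeper, with 33589128 and 33625232. ESS1 mRNA was 5.15 and 5.31 CPM (counts scaled to library depth with TMM factors) in DMSO and 6.70 and 7.92 CPM in IAA. It was called higher, at a log2 fold change of 0.48 (edgeR adjusted p = 0.0109). The degron acts on the protein, so this transcript does not report depletion, and Ess1 protein was not analysed here. URA3, LEU2 and MET17, which BY4741 lacks, were at 0 counts in all 4 libraries. Of the markers of its mating type a, STE2 ranged from 361 to 395 CPM and BAR1 from 103 to 155 CPM. MFA1 and MFA2 lay between 0 and 0.806 CPM, although they define a cells. Their coding sequences are shorter than the sequenced fragments that the FPKM values imply, and the part of this in their low counts was not tested. The alpha-cell marker STE3 lay between 4.68 and 6.12 CPM, MF(ALPHA)1 at or under 0.186 CPM and MF(ALPHA)2 at or under 1.61 CPM. All values are shares of the sequenced RNA of a whole culture, so fewer cells with a transcript and less of it per cell cannot be told apart.

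Stretches upstream of the members that hold a short known motif are shown first, from the RefSeq sequence of R64. The 500 bases before the start codon were searched on both strands. Either form of the Stb5 motif, CGGNGTTA or CGGNCTTA, was found upstream of 7 of the 10 members, against 6.56% of 5993 nuclear protein-coding genes. Each line below gives 28 bases around a match, 5′ to 3′ on the strand that reads the motif, with the motif in capitals.
ZWF1, chrXIV:198309-198336, minus strand: catactccggCGGTCTTAcgcggagata
SOL3, chrVIII:423559-423586, plus strand: tttctttgcgCGGTGTTAtaatttgctc
GND1, chrVIII:470667-470694, plus strand: ttgtggctgtCGGTGTTAcattacggtg
GND1, chrVIII:470688-470715, plus strand: tacggtgcctCGGTGTTAcgcggtgctt
GND2, chrVII:1004398-1004425, minus strand: agccatttttCGGGGTTAttagttaata
RKI1, chrXV:504797-504824, plus strand: tatagtgtggCGGACTTAccggatgtca
TKL1, chrXVI:695240-695267, minus strand: accctgaaaaCGGGCTTAaaagcccatc
TAL1, chrXII:837697-837724, minus strand: ggcattagcgCGGCGTTAtgagctaccc
GND1 held 2 matches of the CGGNGTTA form, and 0.217% of all genes held at least 2. SOL4, TKL2 and RPE1 held no match of either form in this window.

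The stress response element, AGGGG on either strand, was found upstream of 8 of the 10 members, all but GND1 and RPE1, against 34.1% of all genes. ZWF1 held 5 matches, as did or exceeded 12 of the 5993 genes (0.2%), and GND2 held 2, a count reached or passed by 8.13% of all genes. SOL3, SOL4, RKI1, TKL1, TKL2 and TAL1 held 1 match each. The Yap1 motif TTACTAA was found upstream of TKL2 alone among the members, 26 bases before the start codon, against 11.8% of all genes. No match overlapped another and none reached into the upstream gene. The stretches below are printed 5′ to 3′ on the coding strand of each gene, with the element in capitals, and are shown because they belong to the member with most matches and to the 3 minor isoenzymes.
ZWF1, chrXIV:198003-198183, minus strand: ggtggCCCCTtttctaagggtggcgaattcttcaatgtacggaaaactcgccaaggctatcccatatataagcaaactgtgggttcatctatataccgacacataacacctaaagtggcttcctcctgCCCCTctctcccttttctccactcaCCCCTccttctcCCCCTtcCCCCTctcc
GND2, chrVII:1004319-1004474, plus strand: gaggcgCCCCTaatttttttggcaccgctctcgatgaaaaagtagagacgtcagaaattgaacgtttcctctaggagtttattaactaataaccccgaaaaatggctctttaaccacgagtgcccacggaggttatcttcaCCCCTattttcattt
SOL4, chrVII:985832-985862, plus strand: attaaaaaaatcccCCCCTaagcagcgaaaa
TKL2, chrII:476497-476527, minus strand: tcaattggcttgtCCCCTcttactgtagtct
A match describes these letters only and does not show that a factor binds there.

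**Figure D1:**
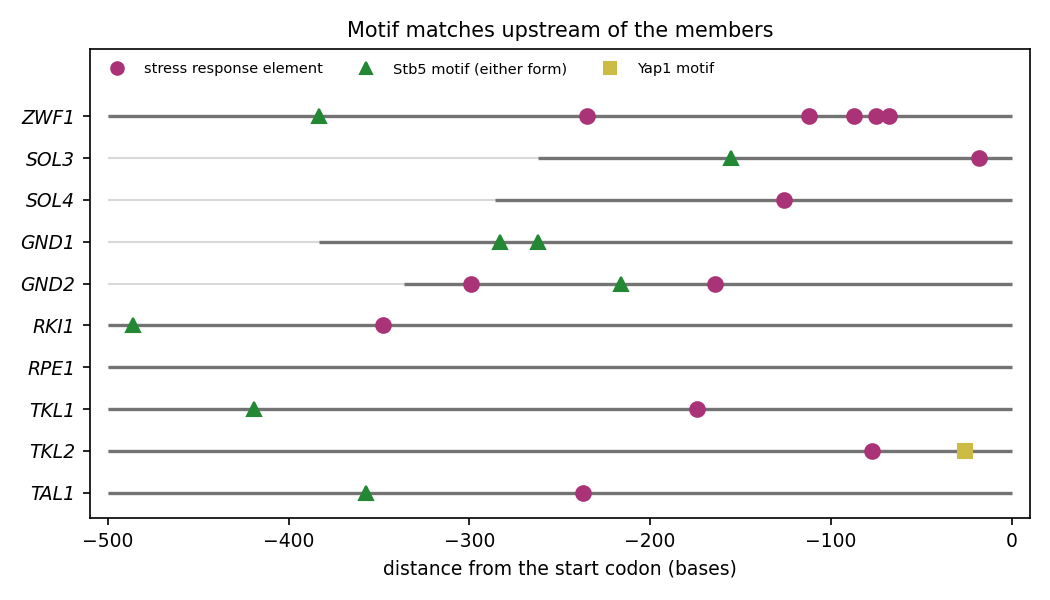
Positions of motif matches in the 500 bases before the start codon (x axis, bases) of the 10 members (rows). Dark lines mark the stretch up to the next gene, circles the stress response element, triangles either form of the Stb5 motif and the square the Yap1 motif. ZWF1 holds 5 circles and RPE1 no symbol.

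Transcript levels spanned more than 2 orders of magnitude within the pathway. Per length, as FPKM (fragments per kilobase, scaled to library depth), TAL1 was the highest member in DMSO at 1081 ± 27 (mean ± SD, n = 2), followed by GND1 at 768 ± 14.2 and TKL1 at 634 ± 5.17. ZWF1 had 233 ± 5.68 FPKM and SOL3 190 ± 0.658 FPKM. RKI1 (167 ± 5.15 FPKM) and RPE1 (164 ± 2.81 FPKM) did not differ beyond their spread. The minor isoenzymes came last, with SOL4 at 15.8 ± 2.77 FPKM, TKL2 at 7.69 ± 0.0424 FPKM and GND2 at 5.37 ± 0.0212 FPKM. In IAA the order was the same down to SOL4, but GND2, at 12.6 ± 0.912 FPKM, stood above TKL2, at 11.1 ± 0.212 FPKM, with no overlap between their libraries. Together the 10 genes held 0.355% and 0.361% of all counts in the DMSO libraries and 0.341% and 0.346% in the IAA libraries.

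**Figure D2:**
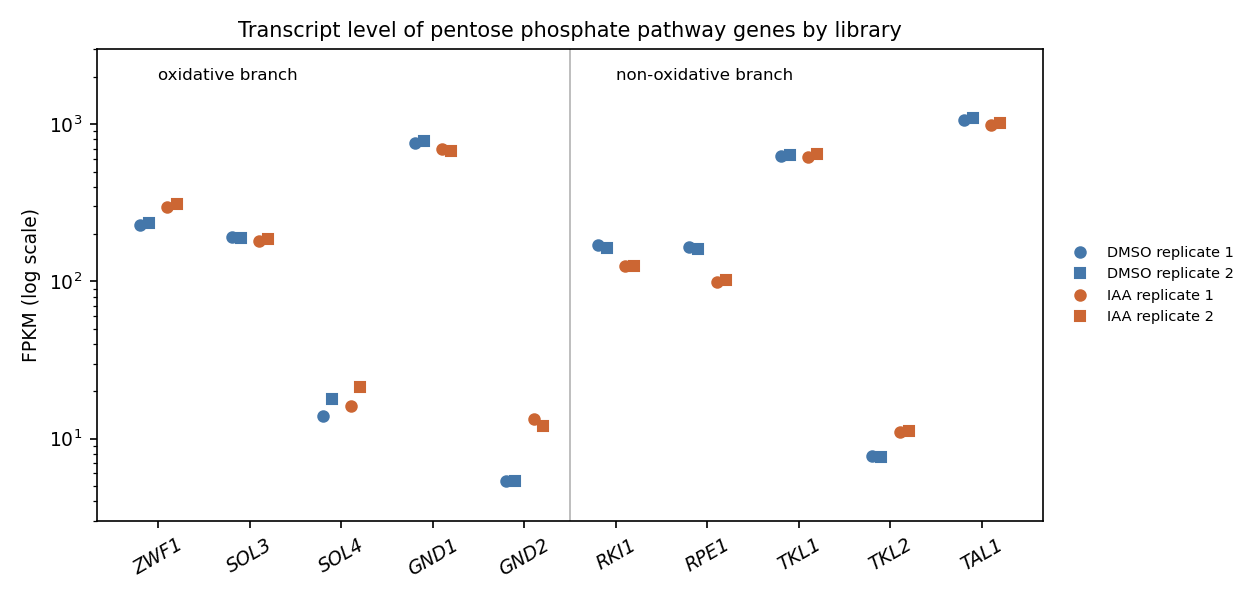
FPKM (y axis, log scale) of the 10 members (x axis) in each library. Blue stands for DMSO and orange for IAA, circles for replicate 1 and squares for replicate 2. SOL4, GND2 and TKL2 lie below 25 FPKM in every library, and GND2 moves farthest between the groups.

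IAA treatment was compared with DMSO to ask how the transcriptome of the degron strain differs after auxin. GND2, TKL2 and ZWF1 rose, RKI1 and RPE1 fell, and SOL3, SOL4, GND1, TKL1 and TAL1 did not pass the test. With 5 of 10 members called by edgeR at an adjusted p under 0.05, the pathway lay near the background, since 58.3% of all tested genes were called, 28.7% higher and 29.6% lower (1666 and 1714 genes, against 1131 and 2501 with library size only). The median log2 fold change of the members was 0.06, against -0.0036 over all tested genes. Among the 7 main genes 1 rose and 2 fell, and among the 3 minor isoenzymes 2 rose and 0 fell. The oxidative branch held 2 rises and 0 falls among 5 genes, and the non-oxidative branch 1 rise and 2 falls among 5. These counts depend on scaling: with library size only, which moved the median of all genes to -0.11, 3 members rose and 4 fell, GND1 and TAL1 being added to the falls. Without IAA replicate 1, SOL4 and TKL1 were added to the rises and GND1 to the falls, giving 5 and 3.

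In the oxidative branch, ZWF1 encodes glucose 6-phosphate dehydrogenase, the enzyme that commits glucose 6-phosphate to the pathway and yields NADPH. The gene lies on chromosome XIV, 196426 to 197943, on the minus strand. Its level was 287 and 297 CPM in DMSO and 401 and 415 CPM in IAA. Both IAA libraries stood above both DMSO libraries by more than the replicates differed. The increase was 1.4-fold, or 0.48 on the log2 scale (SE 0.0428, edgeR adjusted p = 6.40e-05). It was also called in each of 15 alternative analyses, with log2 fold changes from 0.38 to 0.51.

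SOL3 and SOL4 encode lactonases that open the ring of the product of Zwf1. SOL3 (chromosome VIII, 423724 to 424473, plus strand) had 98.0 and 97.0 CPM in DMSO and 98.3 and 99.8 CPM in IAA. Its groups lay within a few CPM of each other, at a log2 fold change of 0.02 (SE 0.0437, edgeR adjusted p = 0.673), and this value was negative with library size only (-0.08) and in the FPKM tables (-0.05). SOL4 (chromosome VII, 985972 to 986739, plus strand) had 7.37 and 9.40 CPM in DMSO and 9.15 and 11.8 CPM in IAA. The groups overlapped, and the replicates within each group differed by about as much as the groups did. The log2 fold change of SOL4 was 0.32 (SE 0.154, edgeR adjusted p = 0.104). It passed the threshold without DMSO replicate 2 (log2 fold change 0.51, adjusted p = 0.0139) and without IAA replicate 1 (0.49, adjusted p = 0.00752). It was lower without DMSO replicate 1 (0.16, adjusted p = 0.421) and without IAA replicate 2 (0.13, adjusted p = 0.463).

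GND1 and GND2 encode 6-phosphogluconate dehydrogenase, which releases carbon dioxide, forms ribulose 5-phosphate and yields the second NADPH of the branch. GND1 (chromosome VIII, 470960 to 472429, plus strand) had 916 and 938 CPM in DMSO and 901 and 861 CPM in IAA. Both IAA libraries lay slightly below both DMSO libraries, at a log2 fold change of -0.07 (SE 0.0424, edgeR adjusted p = 0.171). GND1 was called lower with library size only (-0.18, adjusted p = 0.00583), on log2(FPKM + 1) (-0.17, limma adjusted p = 0.0170) and without IAA replicate 1 (-0.11, adjusted p = 0.0484). GND2 (chromosome VII, 1004624 to 1006102, plus strand) had 177 and 186 reads by estimate with DMSO, against 558 and 502 with IAA. That is 6.55 and 6.50 CPM in DMSO and 17.3 and 15.4 CPM in IAA. The DMSO libraries were almost equal and each IAA library was more than 2-fold above them. The increase was 2.51-fold, or 1.33 on the log2 scale (SE 0.0973, edgeR adjusted p = 3.38e-05), the 66th largest rise among the 5799 tested genes. Across the 15 alternatives it ranged from 1.09 to 1.41 on the log2 scale and was called in each.

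In the non-oxidative branch, RKI1 and RPE1 encode the enzymes that act on ribulose 5-phosphate. Rki1, the ribose 5-phosphate isomerase, makes ribose 5-phosphate, and Rpe1, the epimerase, makes xylulose 5-phosphate. RKI1 (chromosome XV, 503552 to 504328, minus strand) had 92.4 and 88.0 CPM in DMSO and 72.0 and 70.3 CPM in IAA. RPE1 (chromosome X, 190374 to 191090, minus strand) had 80.0 and 77.6 CPM in DMSO and 51.1 and 51.4 CPM in IAA. In both genes the IAA libraries were below the DMSO libraries, and the gap was larger than the spread within either group. On the log2 scale RKI1 fell by 0.34 (SE 0.0482, edgeR adjusted p = 5.30e-04) and RPE1 fell by 0.62 (SE 0.0487, edgeR adjusted p = 4.30e-05), or 1.27-fold and 1.54-fold. Both were called in all 15 alternatives, RKI1 between -0.45 and -0.31 and RPE1 between -0.73 and -0.60. With nearly equal FPKM in DMSO, RKI1 and RPE1 stood at 125 ± 0.453 and 101 ± 1.84 FPKM in IAA (n = 2).

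TKL1 and TKL2 encode transketolase, which moves 2-carbon units between sugar phosphates. TKL1 (chromosome XVI, 692796 to 694838, minus strand) had 1109 and 1121 CPM in DMSO and 1170 and 1211 CPM in IAA. The IAA libraries were above the DMSO libraries on this scale, at a log2 fold change of 0.09 (SE 0.0403, edgeR adjusted p = 0.0732), but the FPKM values overlapped (630 and 637 in DMSO, 618 and 648 in IAA). TKL1 was called higher when genes under a mean of 10 CPM were left out (0.11, adjusted p = 0.0362) and without IAA replicate 1 (0.12, adjusted p = 0.0271), and its sign turned with library size only (-0.00997). TKL2 (chromosome II, 474392 to 476437, minus strand) had 13.6 and 13.5 CPM in DMSO and 20.8 and 21.1 CPM in IAA. Replicates of TKL2 differed by less than 1 CPM while the groups differed by about 7 CPM. Its log2 fold change was 0.63 (SE 0.0684, edgeR adjusted p = 1.61e-04), a 1.54-fold rise called in all 15 alternatives (0.48 to 0.65).

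TAL1 encodes transaldolase, which moves 3-carbon units and links the branch back to glycolysis. The gene lies on chromosome XII, 836350 to 837357, on the minus strand. It had 810.0 and 836 CPM in DMSO and 810.0 and 814 CPM in IAA. The groups overlapped, at a log2 fold change of -0.02 (SE 0.0402, edgeR adjusted p = 0.690). TAL1 was called lower with library size only (-0.12, adjusted p = 0.0259).

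**Figure D3:**
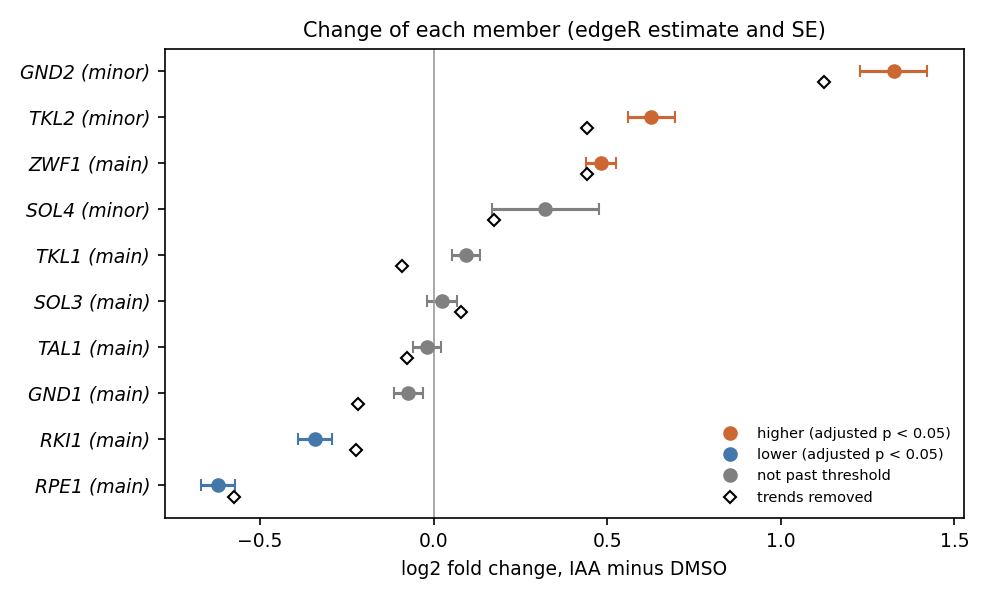
Log2 fold change of each member, IAA minus DMSO (x axis; edgeR estimate, bars show its SE), sorted from GND2 at 1.33 to RPE1 at -0.62. Orange marks genes called higher, blue lower and grey neither, and open diamonds give the value once trends with level, length and base composition were taken out.

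Expression level moved with the direction of change over all genes, and the minor isoenzymes were weakly expressed. Among the 405 tested genes whose mean lay in the range of the minor isoenzymes (9.44 to 17.2 CPM), 36% rose and 20% fell. Among the 2708 genes in the range of the main members (65.0 to 1153 CPM), 24% rose and 37.4% fell. A smooth trend with expression, coding length and GC content, fitted over all tested coding genes, predicted 0.20 for GND2 and 0.19 for TKL2 on the log2 scale. For their highly expressed partners it predicted similar values, 0.15 for GND1 and 0.18 for TKL1. The trend was weak and explained 6.95% of the deviance of the log2 fold changes. With it removed the log2 fold change was 1.12 for GND2, 0.44 for TKL2, 0.44 for ZWF1, -0.22 for RKI1 and -0.57 for RPE1. The values for SOL4 and GND1 were then 0.17 and -0.22, and those for SOL3, TKL1 and TAL1 lay between -0.09 and 0.08, with TKL1 now negative. No sign changed among the 5 called members, but GND2, TKL2, RKI1 and RPE1 moved by more than the spread between their replicates.

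The minor isoenzymes were then compared with the main ones within each library, which no scaling of libraries can alter. Of the summed FPKM of GND1 and GND2, GND2 made up 0.705% and 0.683% in DMSO and 1.87% and 1.74% in IAA. TKL2 made up 1.21% and 1.19% of its pair in DMSO and 1.74% and 1.71% in IAA. In both pairs every IAA library had a larger minor share than every DMSO library, and the main transcript was still more than 50-fold more abundant. GND1 exceeded GND2 by 141- and 145-fold in DMSO and by 52.5- and 56.3-fold in IAA, per length. SOL4 made up 6.78% and 8.57% of its pair in DMSO and 8.25% and 10.3% in IAA, so its groups overlapped.

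In log2 units of the count ratio, GND2 to GND1 rose from -7.15 ± 0.0328 to -5.75 ± 0.0725 (mean ± SD, n = 2), a difference of 1.40 (SE 0.0562) or 2.63-fold. TKL2 to TKL1 went from -6.36 ± 0.0207 to -5.83 ± 0.0207, a difference of 0.53 (SE 0.0207) or 1.45-fold. SOL4 to SOL3 differed by 0.30 (SE 0.254). Each of these SEs rests only on the SD of 2 libraries per group, which can be small by accident. For the change of the minor gene itself, edgeR gave a larger SE for GND2 (0.0973) and TKL2 (0.0684) and a smaller one for SOL4 (0.154). The GND2 and TKL2 differences exceeded the spread between replicates, and the SOL4 difference did not exceed 2 of its SE. A two-sided exact permutation test over the 4 libraries gave p = 0.333 for GND2 to GND1 and for TKL2 to TKL1, the smallest p that 2 against 2 libraries allow, and p = 0.667 for SOL4 to SOL3. Adjusted over the 3 pairs by Benjamini-Hochberg, these exact p-values were 0.5, 0.5 and 0.667, so the design cannot reach the threshold for any pair.

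The copies of each pair are distinct enough to be counted apart. Coding DNA identity was 79.1% between GND1 and GND2, 70.0% between TKL1 and TKL2 and 60.1% between SOL3 and SOL4, and the longest identical stretch was 20, 17 and 8 bases. All 4 estimated counts of each of the 10 members were whole numbers, and RSEM writes decimals where it divides reads between loci. No annotated gene overlaps any member, but some end close to a convergent gene. For example, GND2 ends 102 bp from MTM1, RPE1 130 bp from ALB1 and SOL3 136 bp from DNA2. Transcript ends are not in the annotation used here, and use of the strand in counting is not stated in the sources used here.

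**Figure D4:**
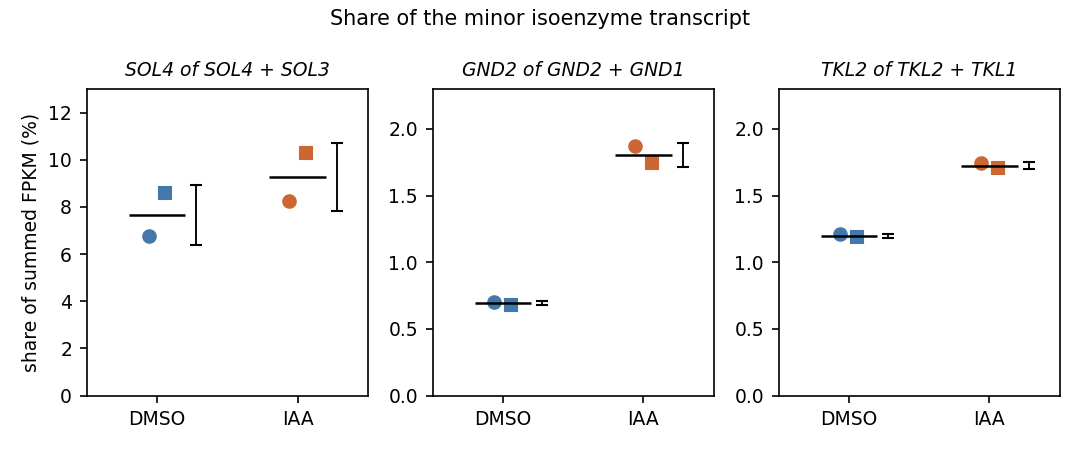
Share of the minor isoenzyme in the summed FPKM of its pair (y axis, percent, from 0) in DMSO and IAA. Circles are replicate 1, squares replicate 2, horizontal lines the mean and bars the SD (n = 2). GND2 and TKL2 shares do not overlap between groups, whereas SOL4 shares do.

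Genes around the pathway were examined in lists by role. The list around the branch point of glucose 6-phosphate also holds PFK1, PFK2 and FBP1, whose enzymes do not act on this sugar itself. In this list 7 of 9 genes rose and 0 fell, against 28.7% and 29.6% of all tested genes, with a median log2 fold change of 0.26. HXK1, a glucose-repressed hexokinase, rose from 276 ± 26.4 to 639 ± 33.3 CPM (n = 2), the glucokinase gene GLK1 from 502 ± 20.1 to 789 ± 64.1 CPM and PGM2, a phosphoglucomutase gene, from 123 ± 10.2 to 228 ± 21.9 CPM, with log2 fold changes of 1.21, 0.65 and 0.89 (edgeR adjusted p at most 7.33e-05). GLK1 had decimal estimated counts in all 4 libraries, which RSEM writes where it divides reads between loci. The part of such reads in its rise was not tested. PFK2 (0.26), PGI1 (0.18), HXK2 (0.12) and FBP1 (0.39) also rose, with edgeR adjusted p between 0.00100 and 0.0347. With library size only, HXK2 (0.01) and PGI1 (0.08) no longer passed, and on log2(FPKM + 1) neither these nor FBP1 (0.27, limma adjusted p = 0.0525) did. PGM1, the other phosphoglucomutase gene, had 181 ± 3.51 CPM in DMSO and 181 ± 2.65 CPM in IAA and did not pass, nor did PFK1 (0.05, and -0.05 with library size only).

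Among the relatives and side branches 1 of 4 genes rose and 1 fell, close to the 28.7% and 29.6% of all tested genes, with a median log2 fold change of 0.12. NQM1, which encodes a second transaldolase, rose from 8.92 ± 0.831 to 11.9 ± 0.458 CPM (n = 2; log2 fold change 0.41, SE 0.0982, edgeR adjusted p = 0.00724), whereas TAL1 did not pass. SHB17, the sedoheptulose bisphosphatase that feeds the non-oxidative branch from glycolysis, fell from 204 ± 3.83 to 165 ± 3.16 CPM (log2 fold change -0.31, edgeR adjusted p = 5.60e-04). SOL1 and SOL2, relatives of SOL3 and SOL4 with a role in tRNA handling, had log2 fold changes of 0.14 and 0.10 and did not pass.

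Of 9 genes for sugar entry and for the use of pathway products, 1 rose and 2 fell, with a median of -0.05, a smaller share called than the 58.3% of all tested genes. PRS3, a subunit gene of the synthetase that turns ribose 5-phosphate into phosphoribosyl pyrophosphate, fell from 139 ± 0.447 to 92.9 ± 0.569 CPM (n = 2; log2 fold change -0.58, edgeR adjusted p = 3.47e-05). The other PRS genes lay between -0.13 and 0.03 and did not pass. Of the pair of genes for the synthase that joins erythrose 4-phosphate to phosphoenolpyruvate, ARO4 rose (0.37, edgeR adjusted p = 5.50e-04) and ARO3 fell (-0.19, edgeR adjusted p = 0.00503). With library size only the share called was no longer smaller: 1 gene rose and 5 fell, against 1131 and 2501 of 5799 tested genes. PRS1, PRS2 and PRS4 were the falls added, and they also passed on log2(FPKM + 1) (limma adjusted p at most 0.0448).

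Among other sources of NADPH 3 of 8 genes rose and 1 fell, with a median of 0.06. The share called was near the 58.3% of all tested genes. The isocitrate dehydrogenase genes IDP1 (mitochondrial) and IDP2 (cytosolic) rose, IDP1 from 242 ± 5.19 to 355 ± 7.40 CPM and IDP2 from 6.20 ± 0.126 to 14.1 ± 1.04 CPM (n = 2), with log2 fold changes of 0.55 and 1.19 (edgeR adjusted p = 3.89e-05 and 5.28e-05). IDP3, the peroxisomal form, did not pass (0.02). YEF1, an NADH kinase gene, rose (0.36, edgeR adjusted p = 0.00602), a call lost on log2(FPKM + 1) (0.24, limma adjusted p = 0.0570), whereas UTR1 (-0.0055) and POS5 (-0.10), which encode the other kinases of this kind, did not pass. ALD6, the main cytosolic aldehyde dehydrogenase that yields NADPH, had 875 ± 17.0 CPM in DMSO and 940 ± 55.1 CPM in IAA and did not pass (0.10, edgeR adjusted p = 0.106). MAE1, the malic enzyme gene, fell from 299 ± 12.7 to 166 ± 7.89 CPM (-0.84, edgeR adjusted p = 1.83e-05).

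Among 3 users of NADPH 1 gene rose and 1 fell, against 28.7% and 29.6% of all tested genes, with a median of -0.03. The glutamate dehydrogenase gene GDH1 rose (0.31, edgeR adjusted p = 0.00350) and the thioredoxin reductase gene TRR1 fell (-0.14, edgeR adjusted p = 0.0167). The glutathione reductase gene GLR1 did not pass (-0.03). GLR1 was called lower with library size only (-0.14, adjusted p = 0.0242). Among 4 regulator genes 2 rose and 1 fell, against the same 28.7% and 29.6% of all tested genes, with a median of 0.15. MSN4 rose from 115 ± 5.93 to 169 ± 25.1 CPM (n = 2; 0.56, edgeR adjusted p = 0.00105) and MSN2 fell from 160.3 ± 5.26 to 135 ± 10.4 CPM (-0.25, edgeR adjusted p = 0.00707). STB5 rose from 32.1 ± 0.473 to 37.2 ± 3.09 CPM (0.21, edgeR adjusted p = 0.0299), a call lost with library size only (0.11, adjusted p = 0.199). YAP1 did not pass (0.09).

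**Figure D5:**
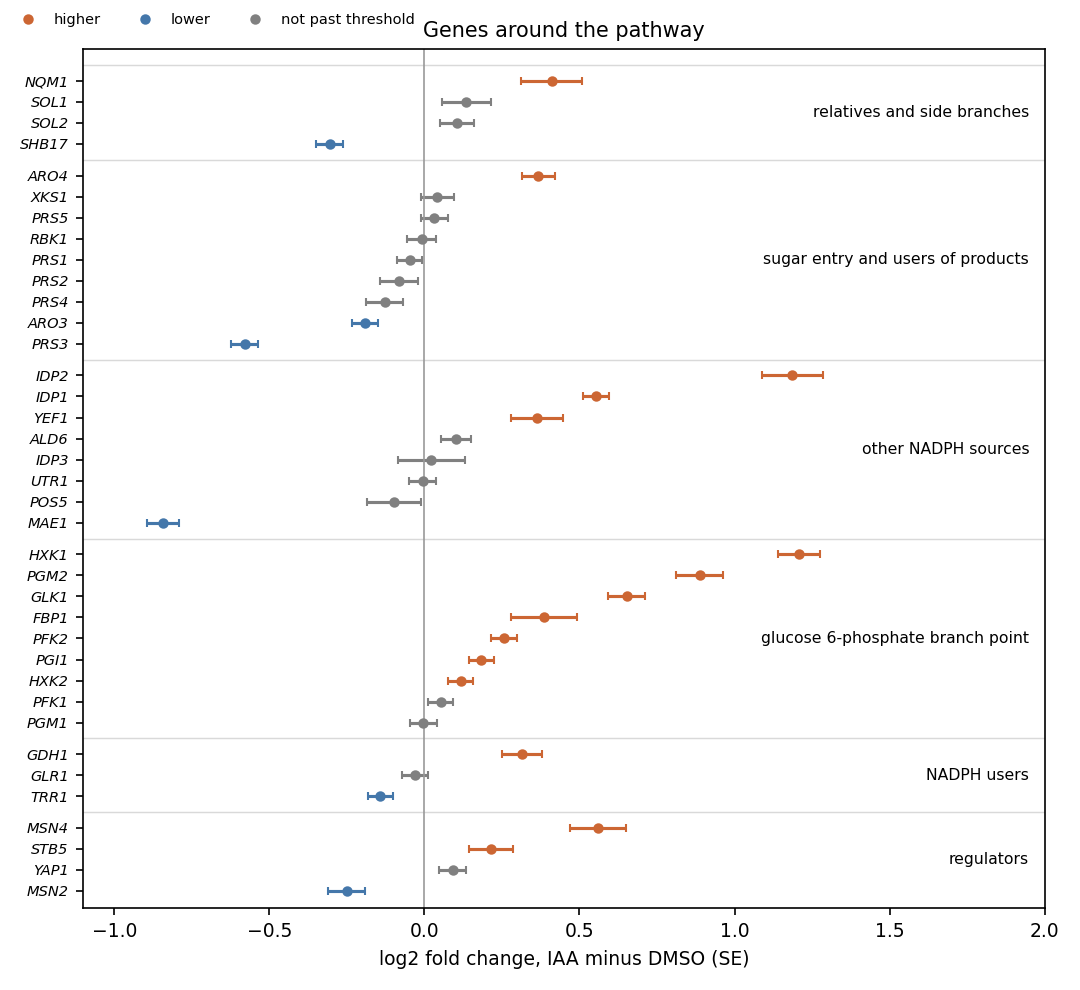
Log2 fold change (x axis, IAA minus DMSO, with its SE from edgeR) of 37 genes around the pathway, grouped by list. Orange marks genes called higher, blue lower and grey neither at an adjusted p under 0.05. HXK1 and IDP2 show the largest rises and MAE1 the largest fall among these genes.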

How the data were processed

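RNA of 4 libraries was made into libraries with a directional kit, per the labels' protocols. The authors deposited expected counts per gene (estimated counts, mostly whole) and, separately, FPKM values. Build R64 and, among the tools, RSEM 1.3.3, STAR 2.7.10a, Trimmomatic, DESeq2, FastQC 0.11.9 and SAMtools 1.10 are named in the submitters' processing notes without their roles. The deposited FPKM equal counts divided by the library total and by the coding length less about 216 to 231 bases (median per library over 4768 genes), so they carry no TMM scaling. MFA1 and MFA2 have shorter coding sequences than this.

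Estimated counts were rounded. In R 4.3.3, edgeR 4.0.16 (filterByExpr, TMM, glmQLFit, glmQLFTest) compared IAA with DMSO over 5799 genes without covariates, with Benjamini-Hochberg adjustment and a threshold of 0.05; it was tested on simulated data. SEs were taken as the log2 fold change over the square root of F. Alternatives used limma 3.58.1, DESeq2 1.42.0 and mgcv 1.9.3 (trends). FPKM were tested on the log2(FPKM + 1) and log2(FPKM + 0.1) scales, which understate changes of low genes. Coding identity used Biopython 1.88. With 2 libraries per group, p-values rest only on the spread between these libraries, which edgeR pools in part across genes. Gene names matched R64 for 6456 of 6459 rows. The members, the lists and the motifs were chosen with earlier results of these data known, and every member is named.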

Additional observations from a re-analysis of the deposited data

How the results depend on the processing

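ZWF1, GND2, TKL2, RKI1 and RPE1 kept their direction and their side of the threshold in all 15 alternatives with a test. The count of members ranged from 3 to 5 higher and from 2 to 4 lower. It was 4 lower with library size only, and with a library left out it ranged from 3 to 5 higher and from 2 to 3 lower. SOL4 was not tested with the filter at 10 CPM. The median of the members turned to -0.046 with library size only and to -0.028 in each of the 3 FPKM fits; leaving out a library gave 0.048 to 0.075, and it was 0.00055 with trends removed. SOL3 turned to -0.081 with library size only and to -0.053 in the FPKM fits, and TKL1 to -0.00997 and -0.0021. TAL1 ranged from -0.044 to 0.0029 with a library left out. The minor to main ratios kept their direction in all 7 alternatives each, over 1.35 to 1.45 for GND2, 0.52 to 0.55 for TKL2 and 0.12 to 0.48 for SOL4. Among these alternatives the replicate block equals the main value by construction. The FPKM values differ from the counts almost only by fixed gene lengths, so neither of these puts the direction to a test. The FPKM share of each minor isoenzyme also kept its direction, also with counts per coding length, chosen after seeing the data. No member had decimal counts, so no ratio had shared reads to mark. The causes were not tested. A left-out library leaves a lone one, assumed to vary like the other group.

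Over all genes, 1131 to 1832 genes were higher and 1274 to 2501 lower across the 15 alternatives. Genes higher and lower were 1131 and 2501 with library size only, against 1666 and 1714 with TMM. The replicate block, with the number as a term, gave 1832 and 1876 genes and 4 members higher and 2 lower, SOL4 being added (adjusted p = 0.0103). The labels do not say that the numbers pair cultures, and the deviations of same-numbered libraries correlated at r = 0.23 over genes. Depth is lowest for the minor isoenzymes, with 177 to 687 counts per library.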

Other observations

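SOL4 differed between replicates in the same way in both groups. Replicate 2 was above replicate 1 in DMSO (9.40 against 7.37 CPM) and in IAA (11.8 against 9.15 CPM), whereas GND2 was at 6.55 and 6.50 CPM in DMSO and at 17.3 and 15.4 CPM in IAA, in the order of replicates 1 and 2. The order was not particular to SOL4. It also held in both groups for HXK1, GLK1, MSN2, MSN4 and PGM2, the last with 116 and 130 CPM in DMSO and 212 and 243 CPM in IAA. POS5 had the reverse order in both groups (65.4 and 55.0 CPM, 59.0 and 53.4 CPM). Only the number is shared between the groups, so what the SOL4 difference reflects was not tested.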
